A study of Homo sapiens with 6 samples.

Results

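The 55 keratin genes of the human genome were followed through 4 ChIP-seq peak lists, one for each combination of 2 histone marks and 2 siRNAs. They were the protein-coding genes of the GENCODE annotation of GRCh37 (hg19) whose symbol is KRT and a number, with or without a letter, out of 20090 protein-coding genes on chromosomes 1 to 22 and X. The genes for keratin-associated proteins were not members. A gene was counted as marked in a list when a region of that list lay within 1 kb of any of its annotated TSSs.

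HSC3, an established oral squamous cell carcinoma line, was transfected with a control siRNA (siCONT) or with an siRNA against the lncRNA DLEU1 (siDLEU1), and chromatin was collected after 72 h. H3K27ac and H3K4me3 were each profiled in 1 library per siRNA. Both arms therefore share the line, the transfection and the time, and differ in the siRNA. As each group is 1 library, differences could not be set against a spread between replicates, no test was run, and all intervals cover counting error only. There were 19705 (siCONT) and 17672 (siDLEU1) regions of H3K27ac and 58582 and 56943 of H3K4me3. Depth, recovered from the lists, ran from 21.5 to 29.4 M reads, and a typical summit held 41 to 75 fragments (medians). The fragments at a summit were divided by the reads of the library in M (FPM, fragments per M reads). Across all genes with H3K27ac in both lists, the median FPM ratio was 0.580 (siDLEU1 over siCONT), so each keratin ratio is read beside it. For H3K4me3 the same median was 1.17. All 8 epithelial marker genes examined, among them CDH1 and TP63, had a region of both marks in both conditions, whereas 1 of 9 markers of other cell types did (COL1A1).

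Keratins are the intermediate filament proteins of epithelial cells. A filament forms from heterodimers of an acidic type I keratin and a basic type II keratin, so the genes are used in pairs, such as KRT5 with KRT14 in basal cells of stratified epithelium, KRT1 with KRT10 in the suprabasal layers of epidermis, KRT4 with KRT13 in the suprabasal layers of oral mucosa, and KRT8 with KRT18 in simple epithelium. KRT6A, KRT6B, KRT6C, KRT16 and KRT17 are switched on in wounded or hyperproliferative epithelium, and other members build the hair shaft and the inner root sheath. The type II genes and KRT18 lie together on chromosome 12, and the other type I genes on chromosome 17. H3K27ac marks active promoters and enhancers, and H3K4me3 marks promoters.

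The stretches upstream of KRT6B and KRT6C are shown because these neighbours are near copies of each other, which bears on how their values below can be read. Each is the part of GRCh37 that ends 1 base before the TSS of the canonical transcript, 5′ to 3′ on the strand of the gene. They are in lower case throughout, as neither TATAAA nor an AP-1 match (TGANTCA) was found in them.
KRT6B, chr12:52845931-52846180, minus strand: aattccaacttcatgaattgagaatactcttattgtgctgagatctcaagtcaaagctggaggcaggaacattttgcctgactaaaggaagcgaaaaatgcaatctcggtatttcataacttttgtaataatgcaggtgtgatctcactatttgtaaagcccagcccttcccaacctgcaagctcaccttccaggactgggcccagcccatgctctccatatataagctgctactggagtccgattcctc
KRT6C, chr12:52867590-52867839, minus strand: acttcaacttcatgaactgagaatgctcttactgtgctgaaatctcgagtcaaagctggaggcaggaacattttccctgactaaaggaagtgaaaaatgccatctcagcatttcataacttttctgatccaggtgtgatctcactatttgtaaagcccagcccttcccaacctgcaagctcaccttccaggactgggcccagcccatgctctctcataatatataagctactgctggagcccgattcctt
Aligned over the 300 bases from 250 before to 50 after the TSS, KRT6B and KRT6C were 88.8% identical. Of all 50-base words within 1 kb of the canonical TSS, 22.3% at KRT6A, 35.5% at KRT6B and 39.1% at KRT6C occurred more than once in the genome, as did 15.1% at KRT14, 21.3% at KRT16 and 19.2% at KRT17. How reads that map to several places were treated is not given in the sources used here, so values at these 6 genes are uncertain to that extent.

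Few keratins were marked, and the same ones carried H3K27ac in both conditions. In siCONT, H3K27ac lay at 7 of 55 keratins (12.7%), against 61.5% of all protein-coding genes, and in siDLEU1 at 7 of 55, against 58.5%. They were KRT5, KRT14, KRT6A, KRT17, KRT8, KRT18 and KRT19 in both lists. No keratin had H3K27ac in 1 condition only, which was seen in 3.17% of all genes for siCONT only and in 0.139% for siDLEU1 only. H3K4me3 lay at 15 keratins in siCONT (27.3%, against 61.2% of all genes) and at 13 in siDLEU1 (23.6%, against 60.8%). The keratins with H3K4me3 were the 7 above with KRT15, KRT6B, KRT6C, KRT16, KRT13 and KRT7 in both lists, and KRT33A and KRT80 in siCONT only. Loss of H3K4me3 from the list after siDLEU1 was seen in 1.88% of all genes and gain in 1.49%. The marks coincided at some keratins only: 7 of 15 keratins with H3K4me3 in siCONT also had H3K27ac, against 95.3% of all genes with H3K4me3, and 7 of 13 did in siDLEU1, against 93.1%.

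The marked genes fell into a few classes. All 3 basal keratins had H3K4me3, and KRT5 and KRT14 also had H3K27ac. All 5 stress-activated keratins had H3K4me3, and KRT6A and KRT17 also had H3K27ac. Of the 5 simple keratins, KRT8, KRT18 and KRT19 had both marks, KRT7 had H3K4me3 only, and KRT20 had neither. Of 11 suprabasal keratins, KRT13 alone had a region, of H3K4me3, and the terminal differentiation pair KRT1 and KRT10 had none at a TSS. One of 17 hair shaft keratins (KRT33A) and none of 9 root sheath keratins had a region of either mark, and of the 5 remaining epithelial keratins KRT80 had H3K4me3 in siCONT. Altogether 40 of the 55 genes had no region of either mark within 1 kb of a TSS in any list.

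Regions were ranked within each list by fold enrichment over the local background, as percentiles (100, the strongest of the list), and a gene took the rank of the strongest region at its TSSs, or 0 where it had none. A rank says where a region stands in its list, not how much of the mark is there. The plot of the ranks shows that most H3K4me3 ranks of basal and simple keratins lay high in both conditions, while those of the KRT6 genes lay lower in siCONT.

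**Figure D1:**
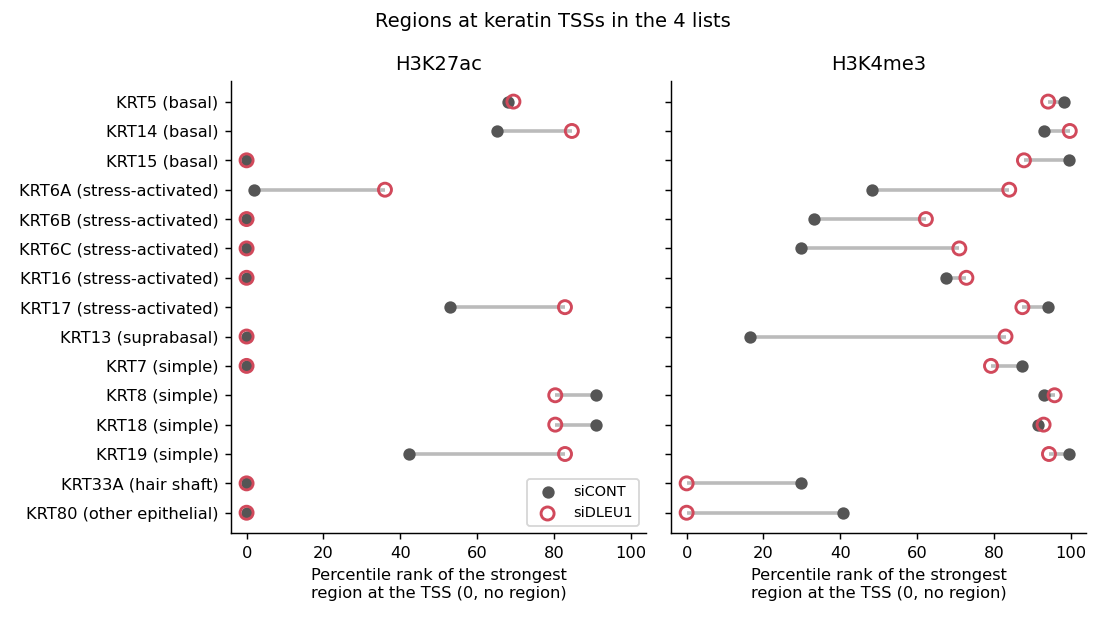
Percentile rank of the strongest H3K27ac (left) and H3K4me3 (right) region at any TSS of the 15 keratins with a region in at least 1 list, in siCONT (filled) and siDLEU1 (open), 1 library each; 0 means no region. KRT6A, KRT14, KRT17 and KRT19 lie higher in siDLEU1 for H3K27ac, and KRT6A, KRT6B, KRT6C and KRT13 do for H3K4me3, KRT13 by regions of different places.

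KRT5 and KRT14 encode the filament pair of the basal layer. The H3K27ac region of KRT5 ran from 52912323 to 52914252 on chromosome 12 in siCONT, over exons 1 and 2, and from 52912365 to 52914110 in siDLEU1. It ranked at 68.1 in siCONT and 69.4 in siDLEU1, with 117 and 88 fragments at the summit, or 5.45 and 2.99 FPM. The FPM ratio was 0.549 (95% interval 0.412 to 0.731), close to the 0.580 of all genes. At KRT14 the region on chromosome 17 ran from 39740997 to 39743190 in siCONT and from 39740817 to 39743104 in siDLEU1. Its rank was 65.1 in siCONT and 84.6 in siDLEU1, with 85 and 91 fragments, and the FPM ratio was 0.782 (0.575 to 1.06). The rank of KRT14 was thus 19.6 points higher in siDLEU1 while its FPM was 3.96 in siCONT and 3.10 in siDLEU1.

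H3K4me3 at the basal keratins formed broad domains. KRT5 ranked at 98.2 in siCONT and 94.1 in siDLEU1, with its strongest region just upstream of the gene, from 52914324 to 52917764 in siCONT. KRT14 ranked at 93.0 in siCONT, in a region of 2747 bp over exons 1 to 3, and at 99.7 in siDLEU1, in a region of 2890 bp from 39743328 to 39746217 that lay upstream of the gene. siCONT also had an upstream region there, from 39743349 to 39745980, which ranked at 70.3 with 121 fragments, against 189 in siDLEU1. A second region in siDLEU1, from 39736062 to 39743163, covered all 8 exons of KRT14 in 1 run of 7102 bp. The strongest summit had 4.25 FPM in siCONT and 8.47 in siDLEU1, a ratio of 1.99 (1.58 to 2.52), and the upstream region of siCONT had 4.25 FPM as well. KRT15, a type I keratin of basal cells, had H3K4me3 without H3K27ac at a TSS. Its strongest siCONT region was a domain of 11522 bp, from 39675985 to 39687506, that also held the whole of the neighbouring KRT19, and ranked at 99.6. In siDLEU1 this domain was broken into several regions, and KRT15 ranked at 87.8 and KRT19 at 94.3. The strongest summit of KRT15 lay at position -1455 from its TSS in siCONT and at -488 in siDLEU1. The siCONT region over the KRT15 TSS ranked at 95.1 with 171 fragments, against 157 in the strongest siDLEU1 region, which also covers that TSS. Ranked by fragments alone, KRT15 stood at 99.3 and 97.3. The length of H3K4me3 regions touching the TSS windows of KRT19 went from 11522 bp to 7226 bp.

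Among the stress-activated keratins, both genes with H3K27ac ranked higher in siDLEU1. KRT6A, which pairs with KRT16 or KRT17 in activated keratinocytes, had an H3K27ac region in exon 1, from 52886318 to 52886874 on chromosome 12 in siCONT and from 52886193 to 52887013 in siDLEU1. It stood near the bottom of the siCONT list at 1.91 and at 36.0 in the siDLEU1 list. The summit held 35 fragments in siCONT and 65 in siDLEU1, or 1.63 and 2.21 FPM, a ratio of 1.36 (0.886 to 2.11) whose interval includes 1. The local background under the summit was 2 in siCONT and 1 in siDLEU1, in control reads, which enters the fold enrichment. Ranked by fragments alone, KRT6A stood at 19.9 and 46.7. With a −log10 q of 3.53 in siCONT and 9.66 in siDLEU1, its region was in neither list when a value of at least 10 was required. KRT17, a type I partner, ranked at 52.9 in siCONT and 82.9 in siDLEU1, with 73 and 100 fragments. These were 3.40 FPM in both conditions, a ratio of 1.001 (0.733 to 1.37). KRT6A and KRT17 were the 2 of 7 keratins with H3K27ac with a ratio above 1, both with intervals that include 1, and a ratio above 1 was seen at 0.674% of all genes (79 of 11722). Both intervals lie above the all-gene median of 0.580, and both genes hold repeated sequence as given above.

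H3K4me3 was found at all 5 stress-activated keratins in both conditions. KRT6A ranked at 48.3 in siCONT and 84.0 in siDLEU1, with 2.71 and 4.44 FPM, a ratio of 1.64 (1.20 to 2.24). KRT6B, which has 9 exons as it does, ranked at 33.1 and 62.3, with a ratio of 2.15 (1.39 to 3.36). KRT6C ranked at 29.7 and 71.0, with 28 and 52 fragments and a ratio of 2.37 (1.47 to 3.89). All 3 ratios have intervals above the all-gene median of 1.17. Because the 3 genes are near copies, their values are not independent of each other. KRT16 ranked at 67.5 and 72.8, with a ratio of 1.32 (0.898 to 1.94). KRT17 ranked at 94.1 and 87.4, with a ratio of 1.09 (0.845 to 1.41). The KRT6 genes moved up by 29.2 points or more in fold rank, which became 14.0 points at KRT6A by fragments. It became 20.3 points at KRT6B when −log10 q had to reach 10. With that limit KRT6B and KRT6C, at 4.66 and 4.88 in siCONT, had no siCONT region, so 20.3 is a siDLEU1 rank set against no region. Under other settings, the change at KRT16 ranged from -21.3 points with a window of 5 kb to 55.0 points with 1 TSS per gene.

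KRT8, KRT18 and KRT19, the keratins of simple epithelium that many carcinomas express, differed from one another. The H3K27ac region of KRT18 ran from 53342863 to 53344276 in siCONT, over exons 1 and 2, and ranked at 90.9, the highest H3K27ac rank of any keratin in siCONT. In siDLEU1 it ranked at 80.3, with 165 fragments in siCONT and 120 in siDLEU1. The FPM ratio was 0.531 (0.416 to 0.676), again near that of all genes. KRT8 took the same region and the same values, because some annotated KRT8 transcripts begin at KRT18. At the canonical start of KRT8 itself, a region from 53296785 to 53298845 ranked at 52.9 in siCONT with 136 fragments. In siDLEU1 that place held 2 regions, of which the one from 53297784 to 53298848 ranked at 64.9 with 98 fragments. KRT8 therefore fell by 10.6 points in fold rank when any TSS was used and was 12.1 points higher when the canonical TSS alone was used. By fragments these regions at the canonical start stood at 86.7 in siCONT and 78.4 in siDLEU1, with 6.33 and 3.33 FPM. The local background was 2 control reads in siCONT and 1 in siDLEU1, so the rise was not seen in the fragments.

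KRT19, the smallest keratin, had the largest rise in H3K27ac rank, from 42.2 in siCONT to 82.9 in siDLEU1. The region of siCONT, from 39682862 to 39684554, held 109 fragments over a local background of 2 control reads, and that of siDLEU1, from 39683056 to 39684550, held 91 over a background of 0.475. Ranked by fragments alone, KRT19 stood at 72.3 and 72.8, so the higher rank by fold enrichment came with a lower control background and was not seen in the fragments. The summit had 5.08 and 3.10 FPM, a ratio of 0.610 (0.457 to 0.813). For H3K4me3, KRT8 ranked at 93.1 and 95.8 and KRT18 at 91.5 and 92.9, with a shared ratio of 0.793 (0.636 to 0.987) at the region at KRT18, which has the most fragments of either gene. KRT19 had the lowest H3K4me3 ratio of the 13 keratins, 0.672 (0.531 to 0.846), but its summits are not at the same place. The siCONT summit, with 218 fragments, is that of the domain shared with KRT15, at position 7963 from the KRT19 TSS. The siDLEU1 summit, with 115 fragments, lay at position 514. KRT7, a type II simple keratin, ranked at 87.4 and 79.2 without H3K27ac, with regions both upstream of the gene and inside it.

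At KRT13, the suprabasal keratin of oral mucosa, the rank depended on which regions fell within the 1 kb window. In siCONT its strongest H3K4me3 region, from 39662165 to 39662373, had its summit at position -417 from the canonical TSS and ranked at 16.5 with 24 fragments. A second siCONT region, from 39662892 to 39664265, had 61 fragments, and the siDLEU1 region that overlaps it, from 39662993 to 39663927 with 43 fragments, lay just outside the window. The region counted in siDLEU1, from 39656467 to 39657182 past the last base of the gene, ranked at 83.0 with 77 fragments. It overlapped a siCONT region from 39655765 to 39657074, which ranked at 78.0 with 76 fragments and ended just outside the window, so 16.5 and 83.0 are not values of the same place. With a window of 3 kb the change was 5.03 points. The siDLEU1 region was counted because an annotated short transcript begins inside KRT13 near its end, and another annotated gene starts within 1 kb of it as well. With the canonical TSS alone, KRT13 had H3K4me3 in siCONT only. KRT33A, a hair shaft keratin, had a region of 224 bp in exon 1 in siCONT with 28 fragments, at 29.7. KRT80, a type II keratin of differentiating epithelia, had one with its summit at position -900 from its TSS, with 33 fragments, at 40.8. Neither was found in siDLEU1, and each had fewer fragments than the siCONT H3K4me3 median of 47.

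**Figure D2:**
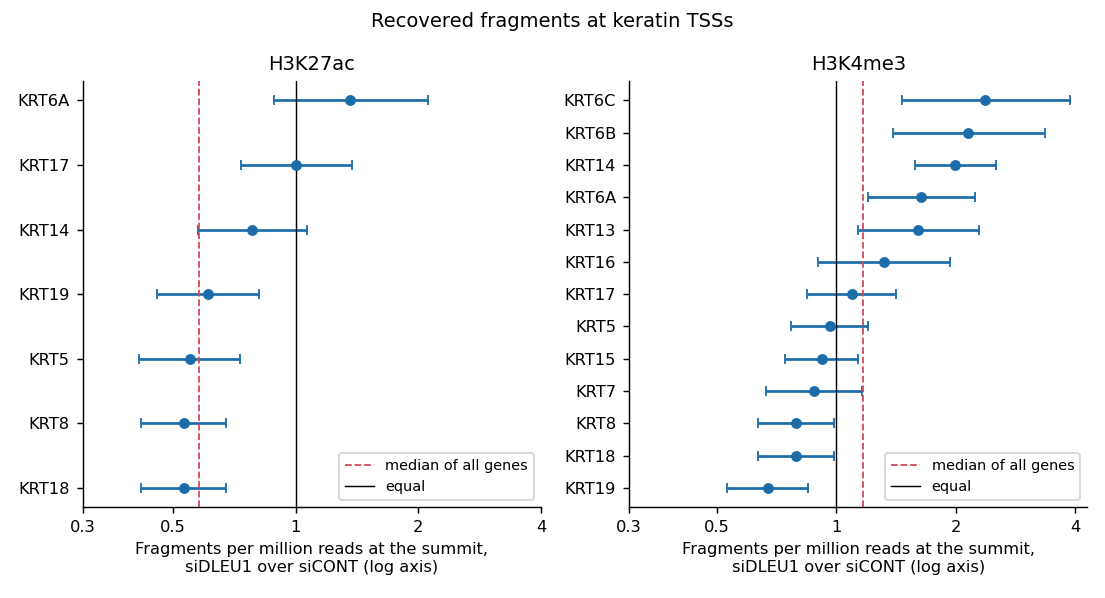
Ratio of FPM at the summit, siDLEU1 over siCONT on a log axis, for each keratin with the mark in both lists, with 95% intervals that cover counting error only. For H3K27ac KRT6A and KRT17 lie farthest above the dashed median of all genes (0.580), and for H3K4me3 KRT6C, KRT6B and KRT14 lie farthest above it (1.17).

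Set against all genes, the ranks of keratins with H3K27ac were on the median higher in siDLEU1, where those of all genes were lower. The median change in H3K27ac rank was 19.6 points at the 7 keratins and -4.32 points over all genes with a region in siCONT. At least 10 points were gained by 4 of 7 keratins, against 16.8% of all genes, and lost by 2 of 7, KRT8 and KRT18 with their shared region, against 36% of all genes. When regions were ranked by fragments, the median change was 0.54 points at keratins and -4.23 over all genes. That median is the value of KRT19, while KRT6A, KRT17 and KRT14 rose by 26.7, 31.3 and 16.3 points in rank by fragments. The median FPM ratio at keratins was 0.610, beside 0.580 over all genes. For H3K4me3 the median change in rank was 1.39 points at keratins and 0.37 over all genes, with at least 10 points gained by 4 of 15, against 20.2%, and lost by 3 of 15, against 18%. The gains were at KRT13, by regions of different places, and at KRT6A, KRT6B and KRT6C, whose values are not independent. The losses were at KRT15, KRT33A and KRT80. The H3K4me3 FPM, at the region with most fragments in each list, was higher in siDLEU1 at 7 of 13 keratins, against 73.6% of all genes. These regions did not overlap between the lists at KRT7, KRT13 and KRT14, and KRT15 and KRT19 shared a siCONT summit. At matching places, FPM in siCONT and siDLEU1 was 3.41 and 3.99 upstream of KRT7 and 6.01 and 7.03 over the KRT15 TSS. Inside KRT7 the siCONT region with most fragments had 4.54, and the strongest siDLEU1 region overlapping it had 2.51. Beside these, the overlapping regions had 2.32 and 2.11. The siDLEU1 region over the KRT15 TSS also overlapped the siCONT domain shared with KRT19, whose summit had 7.67. At the overlapping regions upstream of KRT13, FPM was 2.15 and 1.93. The length of H3K27ac regions touching the TSS windows was longer in siDLEU1 at 3 of 7 keratins, against 6.27% of all genes. These were KRT6A with a ratio of 1.47, KRT17 with 1.31 and KRT14 with 1.13. For H3K4me3 the length was longer at 6 of 13 keratins, against 30.8% of all genes, most at KRT6A with a ratio of 2.36. The plot of changes shows KRT6A on the higher side for both marks, and KRT8 and KRT18 near the middle for H3K4me3 and on the lower side for H3K27ac.

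**Figure D3:**
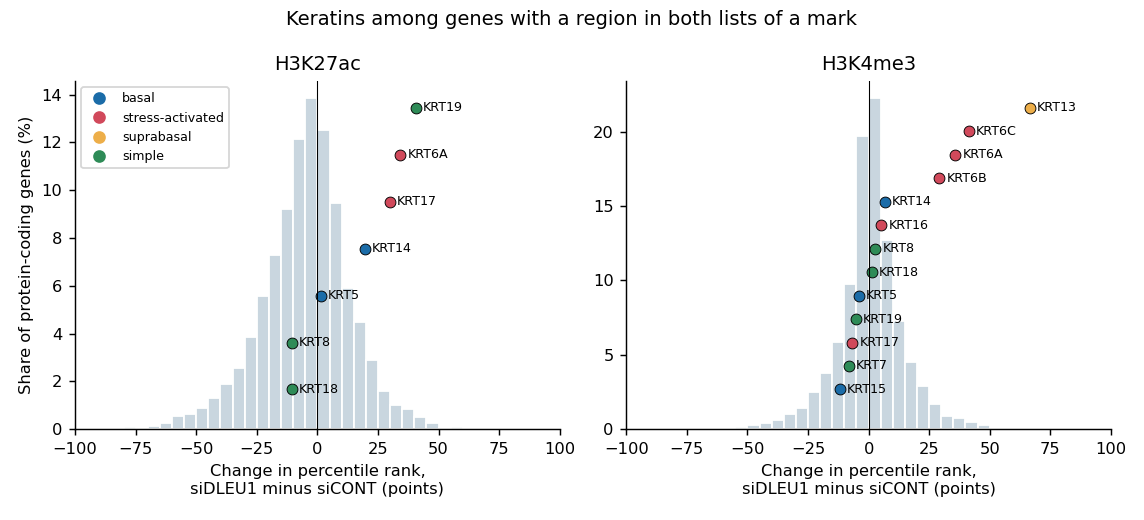
Change in percentile rank (siDLEU1 minus siCONT, points) at keratins with a region in both lists of a mark, over the distribution of all protein-coding genes with one (bars, % of genes); the height of a point only separates the names. KRT19, KRT6A, KRT17 and KRT14 stand to the right for H3K27ac, and KRT13, by regions of different places, and the KRT6 genes for H3K4me3.

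The keratin genes lie in 2 clusters, one of 27 genes over 784 kb on chromosome 12, from KRT80 to KRT18, and one of 28 genes over 970.2 kb on chromosome 17, from KRT222 to KRT17. H3K27ac regions were few in both. The chromosome 12 cluster held 5 H3K27ac regions in each condition, over 0.786% of its length in siCONT and 0.695% in siDLEU1. That on chromosome 17 held 10 regions in siCONT and 8 in siDLEU1, over 0.837% and 0.725%. All of chromosome 12 was covered by H3K27ac to 0.701% and 0.509%, less than its cluster. All of chromosome 17 was covered to 1.30% and 0.983%, more than its cluster. H3K4me3 covered more of the clusters than of their chromosomes. It covered 7.55% of the chromosome 12 cluster in siCONT and 6.74% in siDLEU1, against 1.87% and 1.70% of the chromosome, and 7.54% and 7.08% of the chromosome 17 cluster, against 3.55% and 3.14%. Of the 74 siCONT regions of H3K4me3 in the chromosome 12 cluster, 54 lay away from any protein-coding TSS, as did 50 of 65 on chromosome 17.

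**Figure D4:**
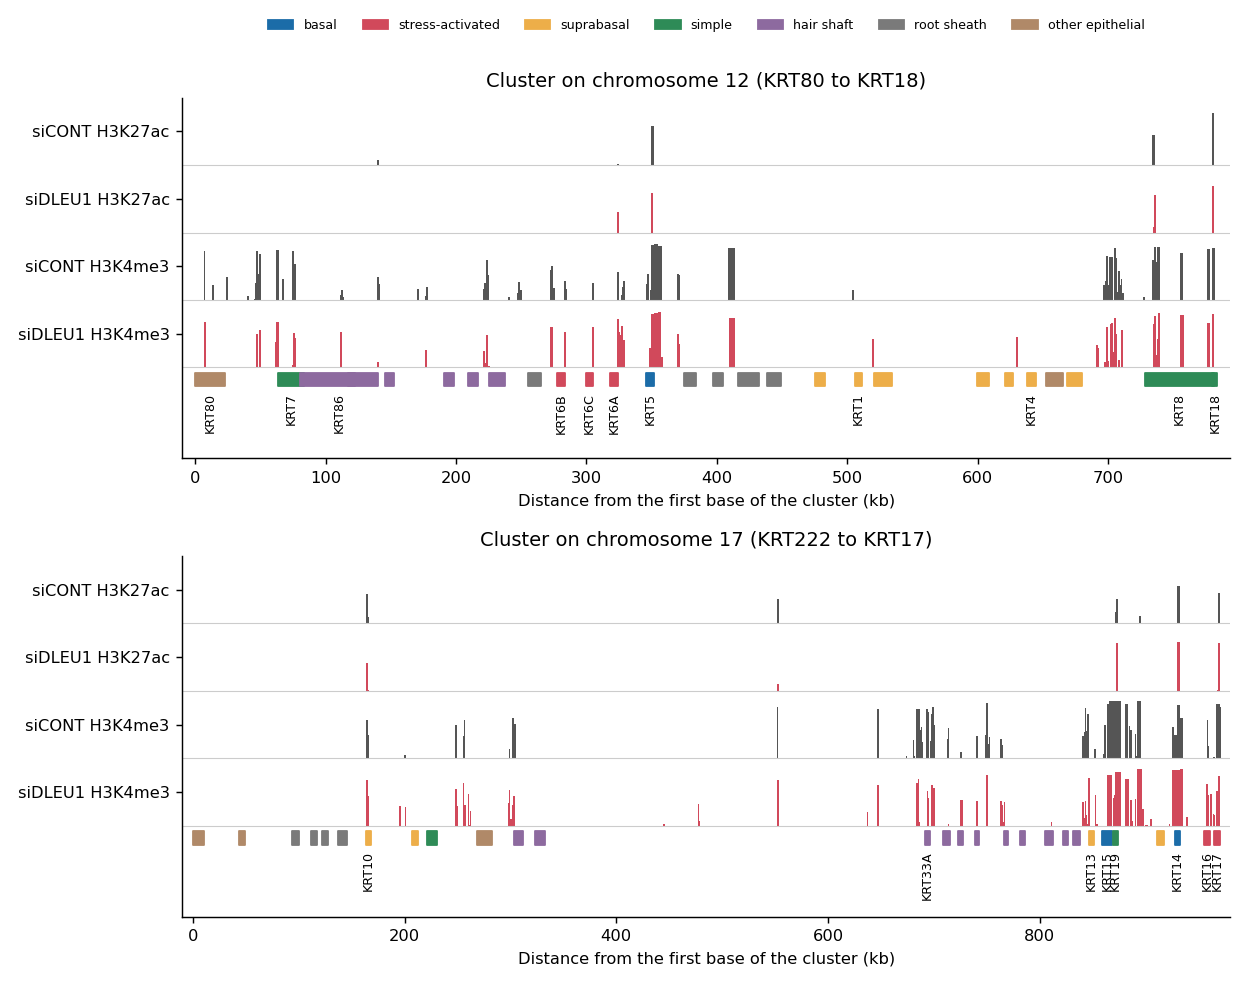
Regions of the 4 lists across both keratin clusters, as bars whose height is the percentile rank within the list (a full row is 100), against the distance from the first base of the cluster in kb; the boxes are the keratin genes, coloured by class, and very short regions are widened to be visible. H3K27ac stands at few places in either cluster, and H3K4me3 is broad at KRT5, KRT15, KRT19 and KRT14.

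The map of the clusters shows that H3K27ac regions away from a protein-coding TSS were also few, unlike those of H3K4me3. The 5 highest H3K27ac ranks of such regions in siCONT began with one from 38974470 to 38975163 on chromosome 17, at 51.2. It lay in the last part of KRT10, at the start of the antisense gene KRT10-AS1, and ranked at 49.0 in siDLEU1. A weaker one beside it, from 38975435 to 38975692, ranked at 12.2. A region from 39362688 to 39363274, in no annotated gene, ranked at 42.0 and fell to 11.9 in siDLEU1. One from 39704818 to 39705110, between KRT19 and the KRT14 group, ranked at 12.2 and had no counterpart in siDLEU1. It lay inside an H3K4me3 region from 39703278 to 39706638 at the lncRNA gene LINC00974, which ranked at 99.5 in siCONT and 98.7 in siDLEU1. The last lay in the hair keratin gene KRT86 from 52702189 to 52702388 on chromosome 12, at 8.60. KRT10 itself, the type I keratin of the epidermal suprabasal layers, was thus unmarked at its own start.

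**Figure D5:**
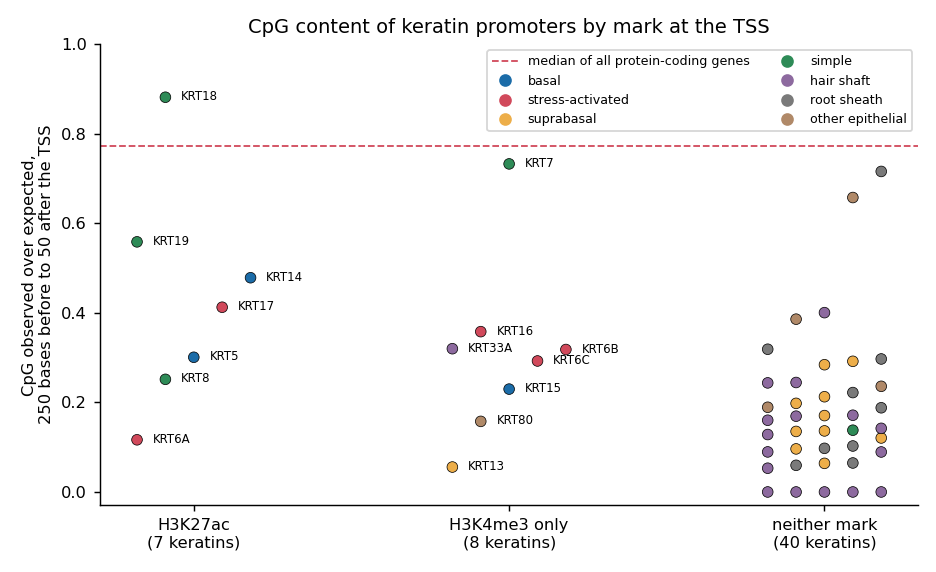
CpG observed over expected in the 300 bases around the canonical TSS of all 55 keratins, by the marks found at the gene in any list; each point is a gene, coloured by class, and the sideways spread only separates the points. KRT18 is the one keratin above the median of all protein-coding genes (dashed, 0.773), and the 40 genes with neither mark have a median of 0.151.

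Keratin promoters held few CpG. The ratio of observed to expected CpG from 250 bases before to 50 after the canonical TSS had a median of 0.188 over the 55 keratins, 0.773 over all protein-coding genes and 0.861 over those with H3K27ac in siCONT. Among keratins the median was 0.412 for the 7 with H3K27ac, 0.305 for the 8 with H3K4me3 only and 0.151 for the 40 with neither. The 7 ran from 0.116 at KRT6A to 0.881 at KRT18. A ratio above 0.6, as in CpG islands, was found at 4 of 55 keratins (7.27%) and at 67.0% of all genes. TATAAA was found, on the strand of the gene or the other, at 27 of 55 keratins (49.1%) and at 9.82% of all promoters of that length. It was found at 21 of 40 keratins with neither mark and at 3 of 7 with H3K27ac.

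The AP-1 letters TGANTCA, sought on both strands, were found at 5 keratins (9.09%) and at 5.44% of all promoters. The 5 were KRT13, KRT14, KRT15, KRT16 and KRT17, of which KRT14 and KRT17 had H3K27ac. AP-1 is the Fos and Jun transcription factor, known to act on keratin genes in keratinocytes. Those of KRT13, KRT15 and KRT16 are shown with their flanks, since each is at a type I keratin of stratified epithelium that had H3K4me3 without H3K27ac, and capitals mark the match, which began between positions -233 and -185 from the TSS.
KRT13, chr17:39662045-39662071, minus strand: ctgtcccctcTGAATCAttctttttgt
KRT15, chr17:39675311-39675337, minus strand: ctattaattcTGAATCAtctcttttgt
KRT16, chr17:39769236-39769262, minus strand: ccgcctagccTGAGTCAccaccgaact
The matches of KRT13 and KRT15 read TGAATCA and that of KRT16 read TGAGTCA. None of the 40 keratins with neither mark had a match in this window, but 3 of them did in the window from 500 before to 100 after the TSS, where 9 of 55 keratins matched, beside 10.8% of all promoters.

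The genes whose products work with keratins were read for comparison. Of 17 genes of desmosomes and plakins, the junctions and linkers to which keratin filaments attach, 14 had H3K27ac in siCONT and 13 in siDLEU1, and 14 and 15 had H3K4me3. Their median change in H3K27ac rank was -8.40 points, next to 19.6 at the keratins and -4.32 over all genes. The largest rises were at DSP, desmoplakin, from 79.3 to 99.9, and PKP3, plakophilin 3, from 82.8 to 96.3, but by fragments they changed by -0.59 and 2.20 points. The largest falls were at PPL, periplakin, from 89.8 to 62.7, and DSG3, desmoglein 3, from 26.3 to no region. By fragments the change was -10.3 points at PPL and -64.4 at PKP2, plakophilin 2, which went from 148 to 47 fragments and is named here after its values were seen. For H3K4me3 the largest rises were at DSC1, from no region to 27.8, and DSC3, from 68.6 to 91.2, both desmocollins, and the largest falls at PPL, from 91.2 to 75.0, and PKP2, from 91.2 to 82.6. Of 18 genes of the cornified envelope, the protein shell of terminally differentiated keratinocytes, none had H3K27ac in siCONT and CSTA alone did in siDLEU1, at 3.16. H3K4me3 was found at 2 in siCONT and 3 in siDLEU1. It rose at TGM1, transglutaminase 1, from 10.3 to 97.4 and appeared at SPRR1B, at 24.5, while none of the 18 fell. The cornified envelope genes and the suprabasal keratins thus had in common that most had neither mark. The same held for the hair shaft, root sheath and remaining epithelial keratins and for the markers of other cell types.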

How the data were processed

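Ion Proton reads had been mapped by the authors to hg19 (bowtie2) and peaks called per library (MACS2), and 4 lists were deposited. Each deposited list gives a fold ratio over local background, a −log10 p and a −log10 q, all as MACS2 wrote them. The score of the deposited lists is for display and played no part. The sources used here do not give the MACS2 settings, its control library or the treatment of multi-mapped reads. The 2 input samples were not analysed here.

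Regions on chromosomes 1 to 22 and X were set against GENCODE v44 lifted to GRCh37 and overlapped by at least 1 bp with windows of 1 kb on either side of every TSS. A gene was called higher or lower at 10 percentile points. Fragments at each summit and the local background were solved from the fold and p of MACS2. All regions gave whole numbers of fragments within 0.01, and the solving was tested on simulated data. Reads in M assume a genome of 2.7 Gb, and ratios do not. Intervals of fragments are exact Poisson, those of ratios exact binomial, at 95%. No test was run with 1 library per group. Sequence was read from GRCh37, and the promoter sequences of some keratins are not reported here.

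Keratins and lists were chosen with earlier results of these data known. Every keratin with a region was named, as were the 2 largest rises and falls of each mark in the desmosome and plakin list and in the cornified envelope list, where fewer moved, and the 5 highest ranked H3K27ac regions away from a TSS. Results were recomputed with regions of −log10 q 10 or more, windows of 3 and 5 kb, the TSS inside a region, 1 TSS per gene, equal numbers of regions, stitching within 1 kb, rank by −log10 p or by fragments and a longer promoter window; the canonical TSS alone was added after the data were seen. Python 3.11.15, numpy 2.4.6, pandas 2.3.3, scipy 1.17.1 and matplotlib 3.10.9 were used.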

Additional observations from a re-analysis of the deposited data

How the results depend on the processing

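No paired analysis was possible because each siRNA and mark has 1 library. H3K27ac was found at 5 to 9 keratins per list under the alternatives tried, against 7; KRT6A was lost from both lists with the stricter q and from that of siCONT with equal numbers of regions. H3K4me3 was found at 27 keratins in siCONT and 27 in siDLEU1 with a window of 5 kb, and at 21 in siDLEU1 with 3 kb. The median change in H3K27ac rank at keratins, 19.6 points, stayed positive throughout and was 7.62 with a −log10 q of at least 10, 10.5 with 3 kb, 14.3 with equal numbers of regions, 23.1 after stitching and 0.54 by fragments, the last being the value of KRT19. That of H3K4me3, 1.39 points, changed sign, to -1.98 with the stricter q, -4.82 with 5 kb, -4.70 with 1 TSS per gene, -4.10 with the canonical TSS, -2.99 by −log10 p and -2.06 by fragments. Of the genes with a change of at least 10 points, those that changed direction were KRT8 in H3K27ac, 12.1 points higher with the canonical TSS, and KRT13 in H3K4me3, -4.32 with 5 kb, and -16.5 both with 1 TSS per gene and with the canonical TSS. By fragments, KRT8 stood lower in siDLEU1 at the canonical TSS as well, at 78.4 against 86.7 in siCONT. Smaller changes also turned sign, at KRT5 in H3K27ac and at KRT8, KRT18 and KRT16 in H3K4me3, KRT16 to -21.3 with 5 kb. At desmosome and plakin genes the H3K27ac change was -17.9 with the stricter q, -6.80 with 1 TSS per gene, -4.20 with equal numbers and -10.7 after stitching, and the H3K4me3 change was -2.45 with 3 kb, 0.055 with 1 TSS per gene, -2.59 after stitching, -0.26 by −log10 p and -0.058 by fragments. Cornified envelope genes numbered 0 for siDLEU1 H3K27ac and 1 for siCONT H3K4me3 with the stricter q, 4 for siCONT H3K4me3 with 5 kb, and 5 and 6 for siDLEU1 H3K4me3 with 3 and 5 kb. In the 2 clusters together the stricter q left 8 and 7 H3K27ac regions and 50 and 58 H3K4me3 regions, and stitching left 62 and 66 of H3K4me3, in siCONT and siDLEU1. TGANTCA was found at 9 keratins, 3 of them with neither mark, in the longer promoter window. The causes were not tested. With 35 to 165 fragments at the summits of the keratins with H3K27ac, counting error alone leaves the ratio of KRT6A uncertain from 0.886 to 2.11, and the spread between cultures cannot be seen.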
